A study of Homo sapiens with 6 samples.

Results

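The 10 genes described here are the transcriptional coactivators YAP1 and WWTR1 (which encodes the protein TAZ), the DNA-binding partners TEAD1, TEAD3 and TEAD4, the kinases LATS1 and LATS2, the angiomotin family scaffold AMOTL2, and the secreted matricellular proteins CYR61 and CTGF (now also written CCN1 and CCN2). They were taken by symbol from a table of 14959 genes, and each of the 10 symbols had 1 row. The libraries come from UM-SCC1, a human cell line of head and neck squamous cell carcinoma (HNSCC), transfected either with miR-204-5p mimics (3 libraries) or with control mimics (3 libraries) and measured by RNA-seq 48 h later, with the 3 transfections of each group done as separate experiments. A mimic is a synthetic double-stranded RNA that the cell loads as it would the mature miRNA, and both groups received an oligo through the same lipid reagent, so untransfected cells are not part of the comparison. The sequence carried by the control mimics is not given in the sources used here. The groups are a model of 1 cell line at 1 time point, and the amount of mature miR-204-5p reached in the cells is not measured by these libraries.

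In the Hippo pathway, MST kinases and their adaptors activate the LATS kinases, which phosphorylate YAP and TAZ and keep them out of the nucleus. Unphosphorylated YAP and TAZ enter the nucleus, bind TEAD factors on DNA and switch on genes such as CTGF, CYR61, AMOTL2 and LATS2, the last pair of which feed back to restrain YAP. In squamous epithelia the pathway is known for coupling cell density and tension to proliferation. A miRNA lowers mRNAs by pairing of its seed, bases 2 to 8, with sites in the 3'UTR.

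The mature sequence of miR-204-5p is shown first because its seed, in capitals, defines the sites searched in the mRNAs. It lies on chromosome 9 from 70810031 to 70810052 (GRCh38.p14, minus strand), inside the gene TRPM3 and outside the exons that GENCODE 29 annotates for that gene.
hsa-miR-204-5p: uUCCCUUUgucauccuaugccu

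For each gene the longest 3'UTR in GENCODE 29 (GRCh38) was searched for matches to the seed. An A opposite the first base of the miRNA, next to the seed, was counted into the match. A match of 7 bases or more was found for 3 of the 10 genes, where 27.1% of 14625 genes with a 3'UTR hold one. LATS1 has an 8mer (AAAGGGAA), LATS2 a 7mer-m8 (AAAGGGA) and TEAD1 a 7mer-A1 (AAGGGAA). The 3 sites are shown along the mRNA, with the matched bases in capitals. The last A of the LATS1 and TEAD1 sites lies outside the seed, and without it the TEAD1 site is the 6mer AAGGGA. The LATS1 window lies at chr6:149660961-149660990 in exon 8, the LATS2 window at chr13:20973915-20973943 in exon 8, both on the minus strand, and the TEAD1 window at chr11:12939334-12939362 on the plus strand, in exon 8 of a transcript whose 3'UTR runs to 7261 bases.
LATS1 8mer: ttccaattttaAAAGGGAAcaaagctgcca
LATS2 7mer-m8: tatatacatcaAAAGGGAttaatacagcg
TEAD1 7mer-A1: catctttccttAAGGGAAgccccatcctc
CYR61, TEAD3 and WWTR1 have no match longer than the 6mer AAGGGA, with 1, 2 and 2 copies, and 12.3% of genes are in that class. Beside its 8mer, LATS1 holds this 6mer at bases 1255 and 1602 of the same 3'UTR. YAP1, TEAD4, CTGF and AMOTL2 have none of these matches. The classes were the same for all 10 genes when every annotated 3'UTR was searched. That search includes the longest 3'UTR, so a class could only stay or become longer. The LATS1 8mer lies in 1 of 3 annotated 3'UTRs of its gene and the TEAD1 7mer-A1 in 1 of 4. LATS2 has 1 annotated 3'UTR. Each 6mer of TEAD3 lies in 1 of 2 and each of WWTR1 in 1 of 3. The transcript that the table lists for TEAD1 ends upstream of the TEAD1 site.

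TEAD factors bind the hexamer GGAATG, which reads CATTCC on the other strand. It was sought on both strands in promoters from RefSeq (GRCh38.p14) that run from 250 bases before to 50 bases after a gene's start. Of the 10 genes, 7 were matched there. TEAD1, TEAD4 and CYR61 were not. The hexamer was found for 4 of the 7, CTGF, AMOTL2, LATS2 and YAP1, and not for WWTR1, TEAD3 or LATS1, while 15.2% of 11453 matched genes of the table hold it in at least 1 promoter. CTGF holds 3 copies, which 0.105% of those genes do, among them WTIP, an upstream regulator described below. The windows are shown in the direction of the gene, hexamers in capitals, because YAP and TAZ reach DNA through TEAD.
CTGF, 169 bases before the start, chr6:131951524-131951553, minus strand: ttttcagacggaGGAATGctgagtgtcaag
CTGF, 104 and 95 bases before the start, chr6:131951455-131951483, minus strand: gtggggaGGAATGcgaGGAATGtccctgt
AMOTL2, 69 bases before the second of 2 starts, chr3:134374499-134374528, minus strand: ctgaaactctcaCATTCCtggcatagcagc
LATS2, base 10 after the start, chr13:21061560-21061589, minus strand: cgtgacgcccgtGGAATGccaacaatgtag
YAP1, 162 bases before the start, chr11:102110273-102110302, plus strand: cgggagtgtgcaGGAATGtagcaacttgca
A match says only that the letters are present. Binding was not measured in these libraries.

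Levels are given in FPKM, the authors' count of fragments scaled by transcript length in kilobases and by the mapped fragments of the library. The 2 groups were compared with limma on log2(FPKM + 1) over all 14959 genes, two-sided, with Benjamini-Hochberg adjustment over all of them, and log2 fold changes (log2FC) are miR-204-5p mimics minus control mimics on that scale, which understates the change of low genes. A gene was called at an adjusted p under 0.05, and 40.8% of all genes were called, 23.9% higher and 16.8% lower with miR-204-5p mimics. Among the 11504 genes with a mean of at least 1 FPKM, to which all 10 genes belong, 47.8% were called, 27.7% higher and 20.1% lower. The excess of higher over lower calls, 3578 against 2520 genes, was smaller after scaling to equal sums (3080 against 2885). It was absent after scaling to equal medians (3023 against 3025) and after quantile normalization (3043 against 3026). Libraries correlated at 0.9899 to 0.9908 (Spearman, across genes) within a group and at 0.973 to 0.976 between groups. Genes were judged to have 1 transcript by the number of decimals of their values. Low values of such genes came in steps that correspond to 13.1 to 16.4 M mapped fragments per library, with overlapping ranges in both groups. The epithelial markers KRT5, KRT14, TP63, CDH1 and EPCAM were at 23.9 FPKM or more in all 6 libraries and KRT6A at 0.970 to 3.36. LUM, PTPRC, CD3E, PECAM1, CDH5 and COL1A2 were below 1 FPKM in every library, and COL1A2 among them rose from 0.322 ± 0.0297 to 0.605 ± 0.0177 FPKM (SD, n = 3; adjusted p = 0.00245 in limma). COL1A1 and CD68 were at 8.04 to 11.7 FPKM. COL3A1, PDGFRA and DCN had no row among the 14959 genes. LUM was listed at 0 in 3 of the 6 libraries. The summed FPKM of the 3 fibroblast markers in the table was 9.44 to 11.2 with miR-204-5p mimics and 8.40 to 9.25 with control mimics, that of the 3 leukocyte markers 9.92 to 10.9 and 10.4 to 12.1, and that of the 2 endothelial markers 0.166 to 0.269 and 0.141 to 0.181. All 6 epithelial markers were themselves called, KRT6A and CDH1 higher and the other 4 lower. Their summed FPKM was 321 to 338 with miR-204-5p mimics and 415 to 453 with control mimics. The call of EPCAM (adjusted p = 0.0477 in limma) was lost in each of the 6 fits without 1 library. TP63 fell from 55.9 ± 1.48 to 27.4 ± 3.19 FPKM (SD, n = 3, adjusted p = 0.000276 in limma). The part of these 6 markers in the results below was not tested. In bulk libraries such as these, a change in the make-up of the culture and a change in RNA per cell cannot be told apart.

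All 10 genes were called, 7 higher (YAP1, TEAD1, TEAD4, LATS2, AMOTL2, CYR61 and CTGF) and 3 lower (WWTR1, TEAD3 and LATS1) with miR-204-5p mimics. For all 10 the 3 values of one group lay entirely on one side of the 3 values of the other, as for 53.6% of all genes (30.9% higher and 22.7% lower with miR-204-5p mimics). The median log2FC of the 10 was 0.56 and that of all genes 0.03. The smallest two-sided p that an exact permutation of 3 against 3 libraries can give is 0.1, so single genes rest on the limma fit. The genes were picked with earlier results of these data known, and these counts describe them and are no evidence about the pathway.

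**Figure D1:**
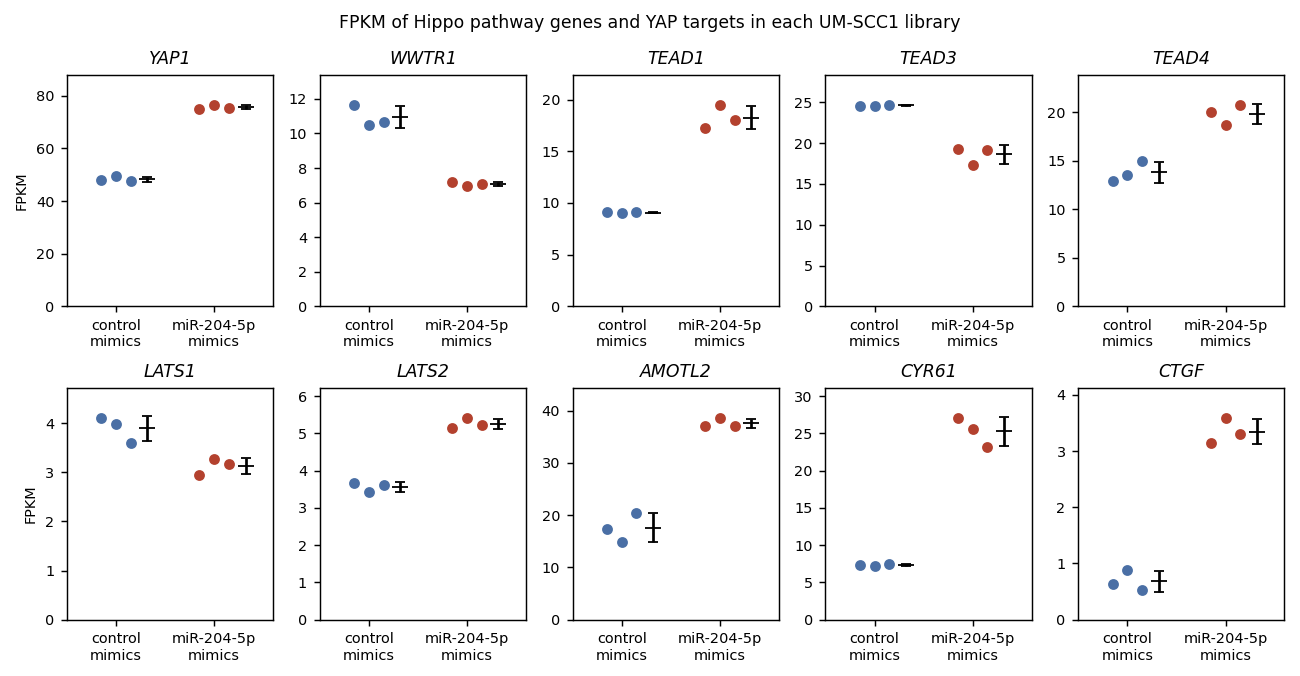
FPKM (vertical axis, from 0, scaled per gene) of the 10 genes in each of the 3 control libraries (blue) and 3 miR-204-5p libraries (red), with the group mean and SD in black. In each panel the 2 groups of points are separated, with YAP1, TEAD1, TEAD4, LATS2, AMOTL2, CYR61 and CTGF higher and WWTR1, TEAD3 and LATS1 lower in the miR-204-5p libraries.

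The largest changes were in the secreted targets. CYR61, an integrin ligand of the extracellular matrix, was at 27.1, 25.6 and 23.2 FPKM in the miR-204-5p libraries and at 7.34, 7.15 and 7.48 FPKM in the control libraries. Each of the 3 values with miR-204-5p mimics was more than 3 times each control value. The ratio of the means was 3.46, the log2FC 1.66 (standard error, SE, 0.0627, adjusted p = 3.09e-05 in limma), and CYR61 ranked 14 of 14959 genes for positive log2 fold change. CTGF, a growth factor binding matrix protein that is the usual readout of YAP and TEAD activity, was at 3.15, 3.59 and 3.30 FPKM with miR-204-5p mimics and at 0.638, 0.883 and 0.522 FPKM with control mimics. It was thus a low gene in control cells, resting on some 20.01 to 28.8 fragments per control library against 96.3 to 134 with miR-204-5p mimics. The mean FPKM was 4.92 times as high, and the log2 fold change was 1.38 (SE 0.0925, adjusted p = 0.000148 in limma, rank 36 of 14959). With a pseudocount of 0.1 in place of 1 the log2 value became 2.17, still called. The CTGF promoter is the one shown above with 3 TEAD hexamers, and neither the CTGF nor the AMOTL2 3'UTR has a seed match. The part of hexamers or seed matches in the changes of these genes was not tested.

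AMOTL2, which binds YAP at junctions and is itself a YAP target, was at 37.1, 38.6 and 37.1 FPKM with miR-204-5p mimics and at 17.4, 14.8 and 20.4 FPKM with control mimics. The control libraries spread more than the others, and the lowest miR-204-5p library was still far above the highest control library. Its log2 fold change was 1.07 (SE 0.105, adjusted p = 0.000523 in limma). LATS2, the LATS kinase that YAP induces, was at 5.13, 5.41 and 5.23 FPKM against 3.68, 3.42 and 3.62 FPKM in control libraries. The 2 ranges were narrow and far apart for a gene of this level. Its log2 fold change was 0.45 (SE 0.0563, adjusted p = 0.00127 in limma), a rise in an mRNA that carries the 7mer-m8 match shown above.

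The coactivators moved in opposite directions. YAP1 was at 75.0, 76.6 and 75.4 FPKM with miR-204-5p mimics and at 47.9, 49.4 and 47.6 FPKM with control mimics, the highest level of the 10 genes in each group. The 2 groups differed by far more than the SD of 0.838 and 0.987 FPKM within them. The log2 fold change of YAP1 was 0.64 (SE 0.0326, adjusted p = 6.81e-05 in limma). WWTR1 was at 7.18, 6.95 and 7.07 FPKM with miR-204-5p mimics and at 11.7, 10.5 and 10.7 FPKM with control mimics. It was lower in all 3 miR-204-5p libraries, at 0.645 times the control mean. Its log2 fold change was -0.57 (SE 0.0549, adjusted p = 0.000500 in limma), with 2 seed matches of 6 bases and none longer. FPKM is a value per length, so the mRNA levels of both genes can be set side by side. The YAP1 level was 10.4, 11.02 and 10.7 times the WWTR1 level in the miR-204-5p libraries and 4.11, 4.71 and 4.45 times in the control libraries. Their summed FPKM was 82.7 ± 0.728 in the miR-204-5p libraries and 59.3 ± 0.888 in the control libraries (SD, n = 3), with YAP1 making up 91.5% ± 0.213 and 81.5% ± 1.03 of it. A ratio within a library is not altered by a constant factor for that library. The transcript listed for YAP1 has a 3'UTR of 652 bases where the longest annotated one has 3483, so the length behind its FPKM is uncertain.

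TEAD1, TEAD3 and TEAD4 encode related DNA-binding partners of YAP and TAZ. TEAD1 was at 17.3, 19.5 and 18.0 FPKM with miR-204-5p mimics and at 9.11, 9.01 and 9.12 FPKM with control mimics. The mean was 2.01 times as high, and the groups were far apart. This is the gene whose longest 3'UTR has the 7mer-A1 site. The log2 fold change of TEAD1 was 0.93 (SE 0.0539, adjusted p = 9.58e-05 in limma). TEAD4 was at 20.002, 18.7 and 20.8 FPKM against 12.9, 13.6 and 14.98 FPKM, higher in every miR-204-5p library (log2FC 0.49, SE 0.0670, adjusted p = 0.00182 in limma). TEAD3 went the other way, at 19.3, 17.3 and 19.2 FPKM against 24.6, 24.6 and 24.7 FPKM in the control libraries (log2FC -0.39, SE 0.0511, adjusted p = 0.00159 in limma). The transcript listed for TEAD3 is annotated as a target of nonsense-mediated decay, so the length behind its FPKM may not be that of the main mRNA. TEAD2, the remaining TEAD gene, was at 4.39, 3.82 and 5.34 FPKM and at 4.30, 5.08 and 4.84 FPKM, with overlapping groups (log2FC -0.06, adjusted p = 0.693 in limma).

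The share of each TEAD gene in the family's sum did not overlap between the groups. With control mimics TEAD3 made up 47.1% ± 1.12 (SD, n = 3) of the summed TEAD FPKM, TEAD4 26.4% ± 1.35 and TEAD1 17.4% ± 0.469. With miR-204-5p mimics the shares of TEAD4, TEAD3 and TEAD1 were 32.4% ± 0.737, 30.4% ± 1.27 and 29.9% ± 2.60, and the FPKM ranges of the 3 genes overlapped. The sum of the 4 TEAD genes was 61.2 ± 2.01 FPKM with miR-204-5p mimics and 52.2 ± 1.39 FPKM with control mimics. These shares and sums depend on the transcript lengths behind the FPKM, which are uncertain for TEAD3, as stated above, and for TEAD1. The transcript listed for TEAD1 has a 3'UTR of 812 bases where the longest annotated one has 7261.

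**Figure D2:**
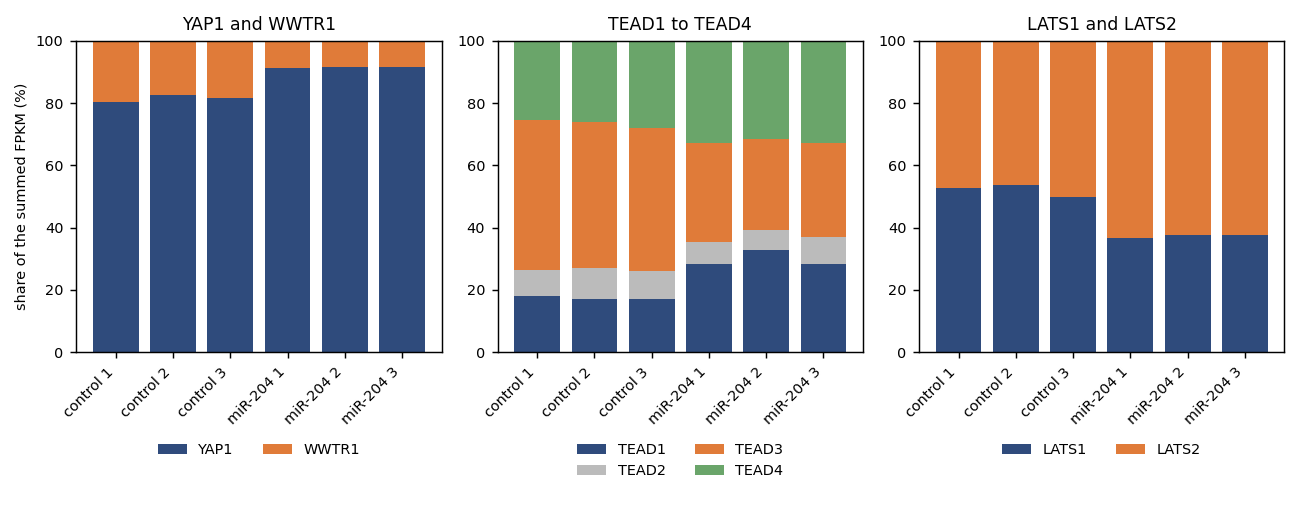
Share (%) of each gene in the summed FPKM of its family, 1 bar per library, for YAP1 and WWTR1, TEAD1 to TEAD4, and LATS1 and LATS2. WWTR1 takes 17.5% to 19.6% of the coactivator sum in control libraries and 8.32% to 8.74% in miR-204-5p libraries, TEAD3 gives way to TEAD1 and TEAD4, and LATS2 takes 46.2% to 50.1% and then 62.2% to 63.5% of the LATS sum.

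LATS1, which phosphorylates YAP and TAZ, was at 2.95, 3.27 and 3.18 FPKM with miR-204-5p mimics and at 4.11, 3.98 and 3.61 FPKM with control mimics. It was the only one of the 10 with an 8mer, the class that 8.62% of genes hold, and it was lower in all 3 miR-204-5p libraries, by the smallest step of the 10. Its log2 fold change was -0.24 (SE 0.0680, adjusted p = 0.0287 in limma). This call was lost in 5 of the 6 fits that left out a library, with limma adjusted p from 0.0517 to 0.0879, and kept without control mimics replicate 3 (adjusted p = 0.0297 in limma). The ratio of LATS1 to LATS2 FPKM was 0.575, 0.605 and 0.607 in the miR-204-5p libraries and 1.12, 1.16 and 0.996 in the control libraries. Their sum was 8.39 ± 0.296 and 7.47 ± 0.285 FPKM (SD, n = 3).

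**Figure D3:**
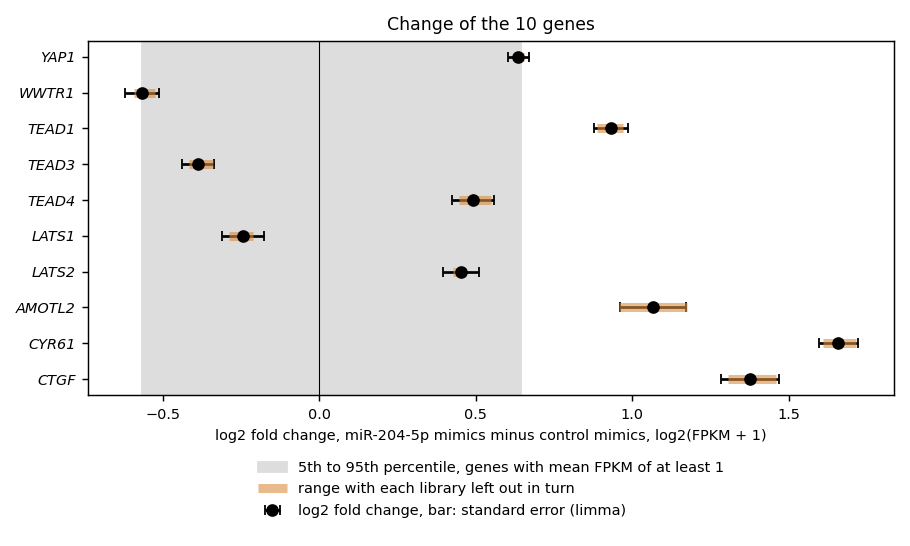
Log2 fold change of each of the 10 genes (points; horizontal axis, miR-204-5p mimics minus control mimics on log2(FPKM + 1)) with the standard error from limma (black bars), the range when each library is left out in turn (orange), and in grey the 5th to 95th percentile of the 11504 genes with a mean of at least 1 FPKM. CYR61, CTGF, AMOTL2 and TEAD1 lie right of the grey band, which runs from -0.57 to 0.64, and WWTR1 lies at its left edge.

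The order of the levels, which depends on the transcript lengths behind the FPKM, changed with the mimics. In control libraries it ran from YAP1 through TEAD3, AMOTL2, TEAD4, WWTR1, TEAD1, CYR61, LATS1 and LATS2 to CTGF, and the ranges of AMOTL2 and TEAD4 and of LATS1 and LATS2 overlapped. In miR-204-5p libraries it ran from YAP1 through AMOTL2, CYR61, TEAD4, TEAD3, TEAD1, WWTR1, LATS2 and CTGF to LATS1. There the ranges of TEAD4, TEAD3 and TEAD1 overlapped, as did those of CTGF and LATS1. CYR61 moved from the seventh to the third place.

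By the positions in the table (hg38), YAP1 (ENSG00000137693) lies at chr11:102110461-102230592 on the plus strand, TEAD1 (ENSG00000187079) at chr11:12674591-12938034 on the plus strand, CYR61 (ENSG00000142871) at chr1:85580761-85583962 on the plus strand, CTGF (ENSG00000118523) at chr6:131948176-131951373 on the minus strand and WWTR1 (ENSG00000018408) at chr3:149517235-149703273 on the minus strand. TEAD4 (ENSG00000197905) lies at chr12:2959330-3040665 on the plus strand, and TEAD3 (ENSG00000007866) at chr6:35473597-35496950, LATS1 (ENSG00000131023) at chr6:149658153-149718256, LATS2 (ENSG00000150457) at chr13:20973032-21061547 and AMOTL2 (ENSG00000114019) at chr3:134355874-134374594 on the minus strand. No other gene of the table overlaps any of the 10 on either strand.

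A wider list of Hippo pathway genes, written from general knowledge, held 34 further names. Of these VGLL2 had no row in the table, and 17 of the other 33 were called, 7 higher and 10 lower. Of all genes 40.8% were called, 23.9% higher and 16.8% lower. All 17 were among the 29 with a mean of at least 1 FPKM, where 47.8% of genes were called. With quantile normalization 7 were higher and 14 lower, with equal sums 7 and 12, and with equal medians 6 and 12. Over all genes quantile normalization gave 3043 higher and 3026 lower. The median log2 fold change of the 33 was -0.09, and that of all genes 0.03. This wider list was also chosen with earlier results of these data known, and its counts describe it and are no evidence about the pathway. The kinase cassette comprises the MST kinases STK3 and STK4, the adaptors SAV1, MOB1A and MOB1B, the kinases MAP4K4, TAOK1, TAOK2 and TAOK3 that can act in place of MST, and the LATS relatives STK38 and STK38L. Of these 11, 3 were higher and 6 lower with miR-204-5p mimics, where 40.8% of all genes were called. MAP4K4 fell from 24.0 ± 2.04 to 16.2 ± 2.34 FPKM (SD, n = 3; log2FC -0.54, adjusted p = 0.00824 in limma). MOB1B, a LATS coactivator, fell from 9.995 ± 0.306 to 6.92 ± 0.435 FPKM (log2FC -0.48, adjusted p = 0.00125 in limma), while its relative MOB1A rose from 42.5 ± 0.682 to 48.9 ± 1.40 FPKM (0.20, adjusted p = 0.00604 in limma). TAOK1, TAOK2, STK38L and STK38 also fell, with log2 fold changes of -0.29, -0.27, -0.28 and -0.27, and the call of STK38 was lost without miR-204-5p replicate 1 and without control replicate 2 or 3. STK3 (0.30) and TAOK3 (0.28) rose. STK4 was at 11.7, 4.54 and 4.58 FPKM with miR-204-5p mimics and at 13.0, 12.7 and 11.9 FPKM in the control libraries. Its log2FC of -0.88 was not called (adjusted p = 0.0656 in limma) and was called without mimics replicate 1 (-1.28, adjusted p = 0.000534 in limma). SAV1 was not called (-0.11). Of genes with a 3'UTR, 27.1% hold a seed match of 7 bases or more. Such a match was present in 6 cassette genes, MAP4K4, MOB1A, MOB1B, STK4, TAOK1 and TAOK2. Of these 4 were lower and 1 higher, and of the 5 without one 2 were lower and 2 higher. Of all genes 16.8% were called lower, and of those with a mean of at least 1 FPKM 20.1%. The transcripts listed for MAP4K4, MOB1B and TAOK1 have no annotated 3'UTR, and that for TAOK2 has no match. Those for MOB1A and STK4 hold a match. Over all 33 genes, 6 of 13 with a match were lower and 1 higher, and 4 of 20 without one were lower and 6 higher. Among the lower ones, the transcript listed for VGLL3 has no annotated 3'UTR, and that for VGLL4 holds a match. The shares called lower among all genes with and without a match are not given here. A link between match and direction was not tested. None of the 5 upstream regulators with a match was called. Of the 10 genes first described, 1 of the 3 with a match was lower and 2 higher.

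Of 15 listed upstream regulators, 2 were higher, 2 lower and 11 not called, 4 of 15 where 40.8% of all genes were called. All 4 were among the 11 with a mean of at least 1 FPKM, where 47.8% were called. FAT1, SCRIB and AMOTL1 were close to the threshold (adjusted p = 0.0521, 0.0548 and 0.0504 in limma) and were called in 6, 4 and 2 of 12 alternative fits, FAT1 and SCRIB lower and AMOTL1 higher. Leaving out 1 library was enough for each, miR-204-5p replicate 3 or control replicate 3 for FAT1, miR-204-5p replicate 3 for SCRIB and miR-204-5p replicate 1 for AMOTL1. WWC1, which encodes the LATS activator KIBRA, rose from 4.15 ± 0.0696 to 8.58 ± 0.370 FPKM (SD, n = 3; log2FC 0.90, adjusted p = 0.000106 in limma). FRMD6, a FERM-domain protein upstream of the kinases, fell from 20.3 ± 1.56 to 11.8 ± 0.0342 FPKM (log2FC -0.73, adjusted p = 0.000290 in limma). LLGL1, a cell polarity protein, fell by 0.24 on the log2 scale (adjusted p = 0.00687 in limma). AJUBA, a LIM protein that inhibits LATS, was at 45.2, 35.2 and 31.99 FPKM against 21.1, 25.5 and 30.1 FPKM (log2FC 0.53, adjusted p = 0.0392 in limma), a call kept in 6 of 12 alternative fits and lost when replicate 1 or 2 of either group was left out. AMOT, DCHS1, FAT4 and WTIP had a mean below 1 FPKM and none was called. WTIP, whose promoter holds 3 TEAD hexamers as that of CTGF does, had a log2FC of -0.10. NF2 (Merlin) was at 7.75, 12.1 and 11.5 FPKM against 12.6, 13.0 and 12.7 FPKM and was not called (-0.29, adjusted p = 0.173 in limma).

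Among other TEAD partners, VGLL1 rose from 28.9 ± 1.27 to 47.3 ± 1.76 FPKM (SD, n = 3; log2FC 0.69, adjusted p = 0.000157 in limma). VGLL1 belongs to the vestigial-like proteins, which bind TEAD at the surface that YAP uses. VGLL4, a repressor of TEAD targets, fell from 15.4 ± 0.714 to 12.03 ± 0.470 FPKM (-0.33, adjusted p = 0.00331 in limma), and VGLL3 from 1.80 ± 0.254 to 1.22 ± 0.0580 FPKM (-0.33, adjusted p = 0.0154 in limma; 0.0503 without mimics replicate 2; log2FC -0.52 with a pseudocount of 0.1). Of the 3 genes for turnover of YAP, CSNK1E, a kinase that primes it for ubiquitination, rose (0.47, adjusted p = 0.00166 in limma). BTRC (0.04) and CSNK1D (0.06) were not called. In the wider list the TEAD hexamer was found for TAOK3, AJUBA and VGLL1, called higher, and for WWC2, RASSF1 and WTIP, not called. Of the matched genes without it, MOB1A, WWC1 and CSNK1E were higher. MOB1B, MAP4K4, TAOK1, TAOK2, STK38L, FRMD6, LLGL1, VGLL3 and VGLL4 were lower, and the others not called. The part of the hexamer in these changes was not tested.

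The second list held 18 genes in common use as YAP and TAZ targets, with CYR61, CTGF, AMOTL2 and LATS2 left out since they are among the 10. Of the 18, 10 were called higher and none lower, and 15 had a positive log2 fold change, where 23.9% of all genes were called higher and 16.8% lower. At a mean of at least 1 FPKM, 9 of 15 were called higher, against 27.7% of genes at that level. The median of the list was 0.37 and that of all genes 0.03. The list was chosen with earlier results of these data known, so these counts describe it and are no evidence about the pathway. TGFB2, a ligand of the TGF-beta family, was at 4.47, 4.40 and 4.26 FPKM with miR-204-5p mimics and at 0.669, 0.516 and 0.640 FPKM with control mimics (log2FC 1.74, SE 0.0625, adjusted p = 2.95e-05 in limma), which became 2.67 with a pseudocount of 0.1. CRIM1, a transmembrane protein that binds BMPs, rose from 26.2 ± 0.803 to 63.9 ± 2.81 FPKM (SD, n = 3; log2FC 1.26, adjusted p = 2.95e-05 in limma). For both, as for CTGF and CYR61, the groups lay far apart. GADD45A, a stress-induced growth arrest gene, was at 58.4, 86.9 and 82.0 FPKM against 42.7, 41.9 and 42.5 FPKM (0.80, adjusted p = 0.00512 in limma). NT5E, the ecto-nucleotidase CD73, rose from 2.48 ± 0.298 to 4.94 ± 0.596 FPKM (0.77, adjusted p = 0.00152 in limma). FJX1 (0.62), NUAK2 (0.55), F3 (tissue factor, 0.51) and AXL (a receptor tyrosine kinase, 0.40) rose as well, with limma adjusted p from 0.000446 to 0.00337. MYOF was called (0.12, adjusted p = 0.0365 in limma) and lost the call in 10 of 12 alternative fits, among them each of the 6 without 1 library. ANKRD1, a nuclear cofactor and classical YAP target, was listed at 0.539, 0.486 and 0.166 FPKM with miR-204-5p mimics and at 0, 0 and 0.0309 FPKM with control mimics, and was called higher (adjusted p = 0.0140 in limma). The other 2 genes below 1 FPKM, FOXF2 and RBMS3, were not called, and neither were ASAP1, IGFBP3, CCDC80, DOCK5, PTPN14 and ARHGEF17. CCDC80 was called higher without control replicate 2 (log2FC 0.46, adjusted p = 0.0228 in limma) and RBMS3 without miR-204-5p replicate 2 (0.29, adjusted p = 0.0183 in limma). IGFBP3, the most abundant of the list, was at 347 to 459 FPKM and 349 to 416 FPKM (0.05). In promoters, 15.2% of the 11453 matched genes of the table held the TEAD hexamer. Among target genes 6 of the 13 matched held it (ANKRD1, AXL, FOXF2, NUAK2, PTPN14 and TGFB2). Of these 6, 4 were called higher, and so were 4 of the 7 without it. A seed match of 7 bases or more, which 27.1% of genes with a 3'UTR hold, was present in 6 of the 18 targets. Of these 6 targets 2 were higher and none lower, and 8 of the 12 without a match were higher. The part of the hexamer and of the seed match in these changes was not tested.

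**Figure D4:**
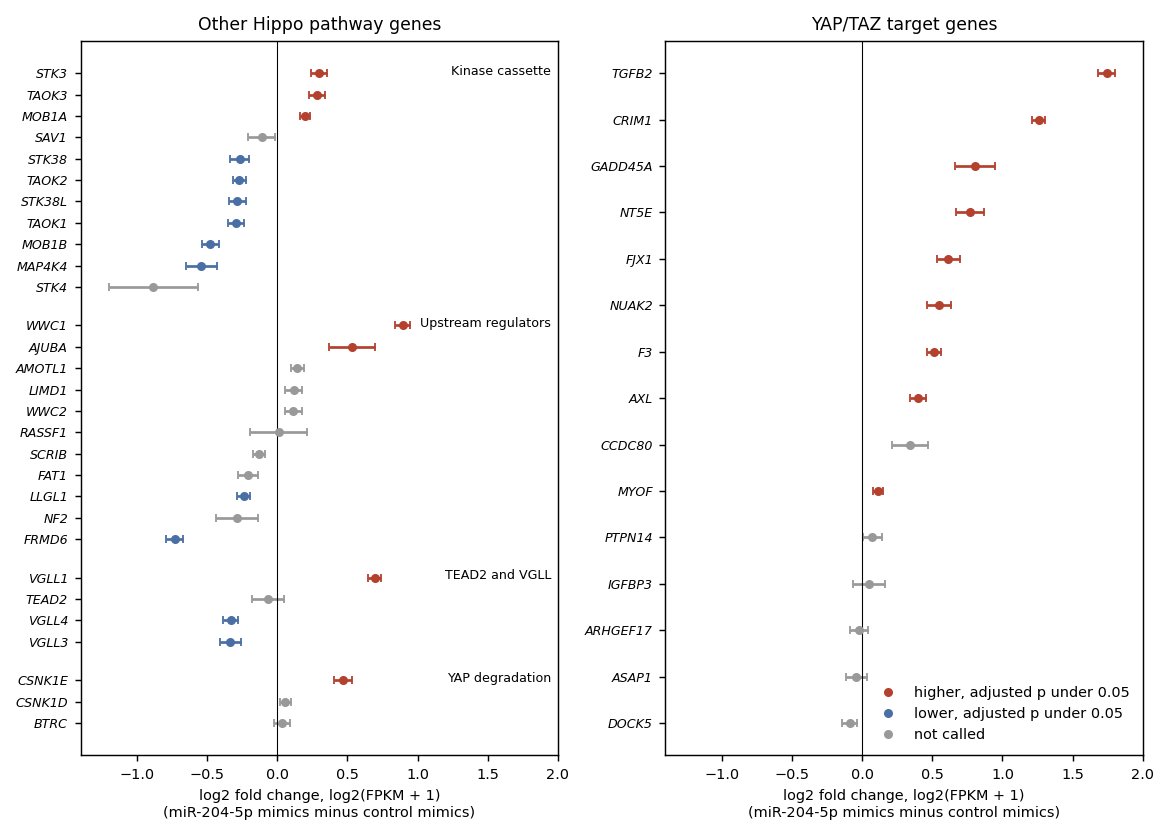
Log2 fold change (horizontal axis, miR-204-5p mimics minus control mimics on log2(FPKM + 1)) with standard error from limma for the other Hippo pathway genes (left, by role) and other YAP and TAZ target genes (right) with a mean of at least 1 FPKM. Red points are called higher, blue points lower and grey points not called. On the left 7 genes are higher and 10 lower, and on the right 9 are higher and none lower.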

How the data were processed

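RNA-seq libraries (Illumina TruSeq, HiSeq X) were made from 3 transfection experiments per group, and p-values measure the spread between these. The authors deposited 1 FPKM value per gene and library. Per the labels, HISAT2, StringTie and build hg38 were used, with versions and annotation not given in the sources used here. The log2 ratios and p-values (edgeR) of the authors' own comparison were not used. The table holds no counts. Depth was taken from the step of FPKM times length with the highest share of whole low values among 1-transcript genes. These genes were picked by the number of decimals of their values. The share was 25.8% to 28.3% within 0.02 steps, against 3.17% to 3.38% at the median step. As most values were not whole, read counts were not recovered and no count model was run.

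limma 3.58.1 (R 4.3.3; lmFit, eBayes with trend) was run on log2(FPKM + 1) with no filter, and tested on simulated data. Seed and motif searches used Python 3.11.15, GENCODE 29 and RefSeq tables. Genes named were the 10 and the markers. From the lists, those called at a mean FPKM of at least 1 with no overlap between groups were named. Those below 1 or without a row in the table were named too. TEAD2, STK4, NF2, SAV1, FAT1, SCRIB, AMOTL1, BTRC, CSNK1D and the uncalled targets at 1 FPKM or more were added after their values were seen. The 10 genes and the lists were chosen with earlier results of these data known. The fit was repeated with a pseudocount of 0.1, without genes of a mean below 1, with the replicate block, under 3 scalings (equal sums, equal medians, quantile) and without each library in turn.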

Additional observations from a re-analysis of the deposited data

How the results depend on the processing

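Over 12 alternative fits the 10 genes kept their direction in all 120 values and their call in 114. The 6 exceptions were LATS1, which was not called with the replicate number as a block (log2 fold change -0.24, limma adjusted p = 0.0747) or in 5 fits without 1 library, where its log2 fold change ranged from -0.29 to -0.21 over the 6 such fits. Same-numbered libraries did not deviate together (correlations of -0.04, -0.02 and -0.11 over 11504 genes), and no library correlated best with its own number, so the numbers were not taken to pair the cultures. With the block, 5096 genes were called in place of 6098. Leaving out 1 library gave 4971 to 5371 genes, 9 to 10 of the 10, 15 to 19 of the other pathway genes and 9 to 10 of the target genes. Scaling to equal sums, equal medians or equal quantiles left all 10 calls, and with quantile normalization DOCK5, FAT4 and WTIP were called lower. Values near 0.5 FPKM, such as CTGF with control mimics and ANKRD1, rest on few fragments.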

Other observations

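The shares within other paralog families of the pathway, which a constant factor per library leaves unaltered and quantile normalization can alter, were as follows. They depend on the transcript lengths behind the FPKM, which are uncertain for MOB1B (listed on a transcript of 760 bases), AMOTL1 (653 bases) and VGLL3 (a transcript annotated for nonsense-mediated decay). MOB1B took 19.0% ± 0.525 (SD, n = 3) of the summed MOB1A and MOB1B FPKM with control mimics and 12.4% ± 0.629 with miR-204-5p mimics. Among VGLL1, VGLL3 and VGLL4, the share of VGLL1 was 62.7% ± 1.02 and 78.1% ± 0.343, and that of VGLL4 33.4% ± 0.723 and 19.9% ± 0.278. WWC1 made up 55.2% ± 1.06 of the summed WWC1 and WWC2 FPKM with control mimics and 69.7% ± 1.19 with miR-204-5p mimics. AMOTL2 made up 39.3% ± 4.56 and 55.7% ± 1.05 of the summed AMOT, AMOTL1 and AMOTL2 FPKM, with AMOT under 0.1% in every library. STK3 made up 54.4% to 57.3% of the summed STK3 and STK4 FPKM in control libraries and 64.0%, 81.3% and 80.1% in the miR-204-5p libraries, where replicate 1 stood apart.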
